A study of Mus musculus with 11 samples.

Results

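The 7 transcription factor genes Sox2, Sox21, Sox4, Sox11, Sox9, Sox10 and Prox1 were taken by symbol from the expression tables of the mouse cochlear duct floor, which list 18667 genes at all 4 ages. Cells came from wildtype CD1 mice at embryonic days 14 and 16 (E14, E16) and postnatal days 1 and 7 (P1, P7), with no treatment, and each collection pooled the cochleae of several animals of either sex from a litter. They were dissociated and captured in droplets as single cells, in 2 libraries of E14 cells, 3 of E16, 4 of P1 and 2 of P7 (numbered 4 and 5). Each value is a mean over the cells of a class in a library, as unique molecular identifiers (UMIs) counted for a gene in every 1000000 UMIs that a cell holds (CPM), and an error is the SD over libraries. A library stood for the pooled animals of a collection. P-values rest on how differences between classes varied from library to library, with 1 estimate shared by all named classes of an age. The spread of levels between libraries was taken out by the library block.

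The organ of Corti, the hearing epithelium of the cochlea, forms from prosensory cells in the floor of the cochlear duct, which become either mechanosensory hair cells (HCs) or the supporting cells (SCs) that surround them. On the medial side lies Kölliker's organ (KO), a transient epithelium, and the duct is closed by a roof. Sox proteins bind DNA through an HMG box and fall into groups by sequence. Sox2, of the B group, is known as a marker of the prosensory domain and is required for its formation, and Sox21 belongs to the branch of that group known for repression. Sox4 and Sox11 form the C group, known from differentiating progenitors and neurons, and Sox9 and Sox10 belong to the E group, known from the otic placode, cartilage (Sox9) and glia (Sox10). Prox1 is a homeodomain protein related to fly prospero and is known from lateral prosensory cells, pillar cells and Deiters' cells.

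In the mm10 assembly and the GENCODE annotation, Sox2 lies at chr3:34650405-34652461 on the plus strand, inside the longer noncoding gene Sox2ot of the same strand. Whether these genes share exons, where reads could not be told apart, was not looked at. Sox21 lies at chr14:118233232-118237030, Sox4 at chr13:28948919-28953713 and Prox1 at chr1:190118035-190170714, each on the minus strand and each overlapped by a noncoding gene of the opposite strand (Gm4675, Gm26735, and Gm28172 with Prox1os). Sox11 at chr12:27334264-27342574 and Sox10 at chr15:79154908-79165240 on the minus strand and Sox9 at chr11:112782224-112787760 on the plus strand overlap no other gene.

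Sox2, Sox21 and Prox1 were the members with higher levels in prosensory cells than in KO at both embryonic ages, and the 250 bases before their annotated starts (RefSeq, GRCm38.p6) are given for that reason. The sequences run 5′ to 3′ on the strand of the gene, and capitals mark matches to 5 motifs searched on both strands. ACAAAG is a run of letters found in Sox binding sites. ACAATG is another such run. GTGGGAA is found in binding sites of the Notch pathway factor RBPJ. GGGCGG is the GC box. TATAAA is the core of the TATA box.
Sox2, chr3:34649745-34649994, plus strand: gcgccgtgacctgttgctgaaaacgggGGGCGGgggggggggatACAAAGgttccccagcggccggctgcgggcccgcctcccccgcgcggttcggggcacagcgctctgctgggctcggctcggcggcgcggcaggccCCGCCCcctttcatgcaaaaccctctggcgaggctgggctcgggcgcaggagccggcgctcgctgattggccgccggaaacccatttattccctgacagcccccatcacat
Prox1, chr1:190170828-190171077, minus strand, the start further upstream: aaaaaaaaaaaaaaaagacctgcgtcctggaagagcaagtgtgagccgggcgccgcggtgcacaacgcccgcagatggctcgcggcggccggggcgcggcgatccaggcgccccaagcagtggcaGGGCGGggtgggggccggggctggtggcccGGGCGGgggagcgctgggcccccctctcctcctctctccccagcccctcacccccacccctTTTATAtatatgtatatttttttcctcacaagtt
Sox21, chr14:118237031-118237280, minus strand: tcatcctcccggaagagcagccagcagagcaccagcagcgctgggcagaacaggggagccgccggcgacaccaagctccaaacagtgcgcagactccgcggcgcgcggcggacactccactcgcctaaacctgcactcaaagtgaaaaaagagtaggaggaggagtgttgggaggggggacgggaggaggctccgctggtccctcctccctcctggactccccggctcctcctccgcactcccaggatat
The Sox2 window held ACAAAG 206 bases before the start and GC boxes 223 and 111 bases before it. Prox1 held GC boxes 125 and 95 bases before its start and the reverse complement of the TATA core 34 bases before it. The window before another annotated Prox1 start, chr1:190169516-190169765, held the reverse complement of ACAAAG 174 bases and a GC box 58 bases before it. None of the 5 motifs was found in the Sox21 window, and no marked matches overlapped. Among 32851 promoter windows of this length, ACAAAG was found in 16.5%, its variant ACAATG in 10.7%, the RBPJ letters in 5.42%, the GC box in 32.7% and the TATA core in 12.4%. Of the 7 genes, 5 were matched in the promoter table, which has no entry for Sox9 or Sox10.

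Cell classes were built from the expression of other genes: the 7 members were left out of the clustering and of every marker list. Clusters were named from fixed lists of markers. The counts that follow use the same lists, so they describe the classes and are no independent test of the names. HCs held the highest level of all 19 of their listed markers at each age. The SCs held the highest level of 24 of their 25 markers at P1 and 19 of 25 at P7, and prosensory cells of 15 of 25 at E14 and 16 of 25 at E16. At P7 the KO class led in 7 of its 14 markers, so its label rests on less there. KO was also named by a looser rule than other classes at every age. It needed a marker score (mean z) of 0.1 and a lead of 0.05, with no marker raised 2-fold. Other classes needed a score of 0.5 (1.0 for SCs), a lead of 0.2 and 3 such markers. The P7 KO cluster of 420 cells had 0 markers raised 2-fold. The E16 SCs led in 9 of the 25, were all inner phalangeal cells and enter no test, and P7 SCs were pillar and Deiters' cells. By rule, the pillar and Deiters' name was not open to E16 clusters, so pillar cells of that age can stand among the prosensory cells. An E16 prosensory cluster of 275 cells had Npy, Gm45645, Ngfr and S100b among its leading genes, beside Fgf20. A P1 pillar and Deiters' cluster of 188 cells shared the first 4 of these. E16 prosensory values are thus not of progenitors alone. The E14 HCs formed 1 cluster of 56 cells with the IHC markers in the lead, typed as a whole and not cell by cell. At P1, 833 of the 1015 HCs were OHCs, so that HC values of different ages can differ in the mix of HC types. Between 7.64% and 17.1% of the cells of an embryonic library, 26.1% to 30.3% at P1 and 43.4% to 54.3% at P7 stayed unnamed. Libraries held 1247 to 5598 cells, with medians of 2478 to 5647.5 UMIs per cell, and any pair of libraries shared at most 0.958% of the cell barcodes of the smaller. In the 2 E14 libraries, Sox2 was lower in library 2 in each of the 6 named classes, and at P1, Sox4 was lowest in library 1 in each of the 6.

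In the 16 comparisons of classes made within an age, Sox2, Sox21 and Prox1 were higher than in KO in the prosensory cells of E14 and E16 and in the SCs of P1, and from E16 on hair cells held less of each member tested than prosensory cells or SCs. A gene was called at an adjusted p under 0.05 (limma with library as a block, Benjamini-Hochberg over all genes tested), and differences are on the log2(CPM + 10) scale. In prosensory cells against KO, 3 of the 7 members were called at E14, all higher, where 10% of all genes tested were called (5.27% higher, 4.74% lower). At E16 it was again 3 of 7, all higher, with 8.46% of all genes called (4.66% higher, 3.81% lower). In SCs against KO, 3 of 7 were higher at P1, beside 17.8% of all genes called (10.5% higher, 7.28% lower). Of the 6 members tested at P7, 2 were higher (Prox1 and Sox9) and 1 was lower (Sox4), beside 19% (10.7% higher, 8.36% lower). In HCs against prosensory cells, 3 of 7 were lower at E14, where 20.7% of all genes were called (7.35% higher, 13.3% lower), and 7 of 7 at E16, where 14.9% were (6.77% higher, 8.08% lower). In HCs against SCs, 7 of 7 were lower at P1, beside 44.8% of all genes (21.7% higher, 23.1% lower), and 6 of 6 tested at P7, beside 39.6% (20.2% higher, 19.3% lower). The median difference of the members in HCs was -1.59 at E16, -2.50 at P1 and -2.29 at P7, beside medians of all genes of -0.03, -0.01 and 0.05.

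**Figure D1:**
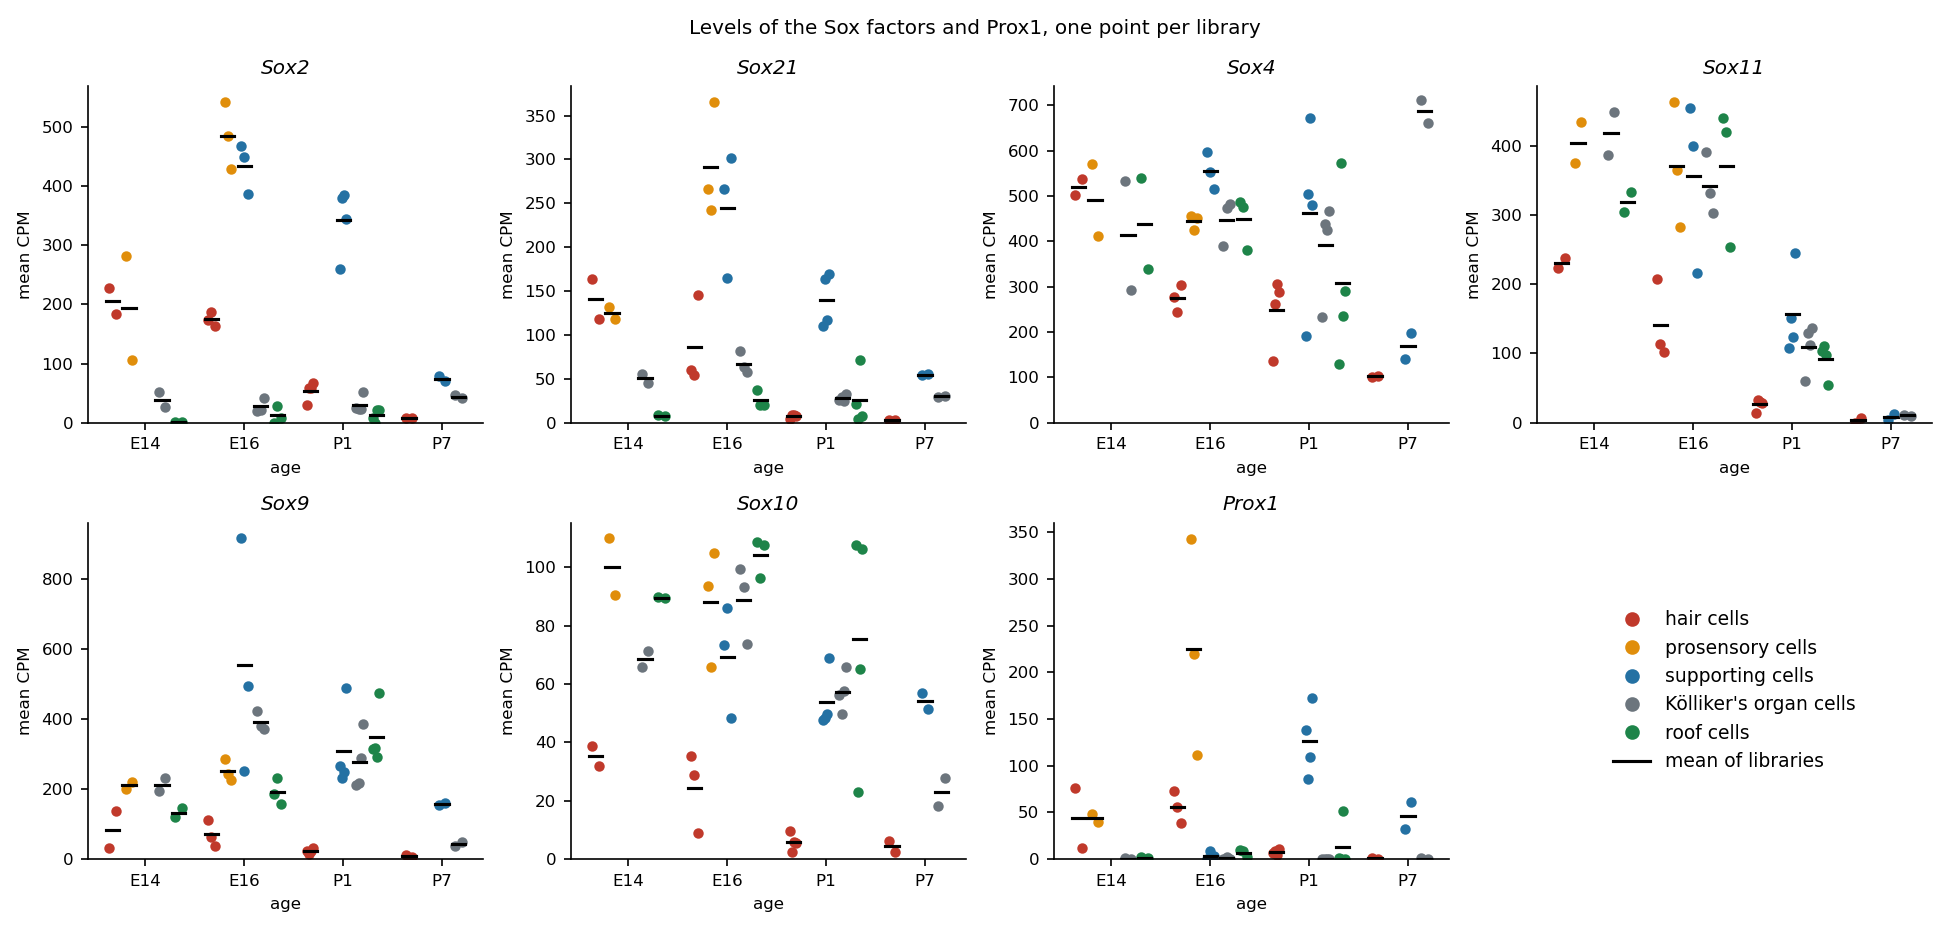
Mean CPM of each member (one panel per gene, linear axis from 0) in hair, prosensory, supporting, KO and roof cells by age, with one point per library and a bar at the mean. Sox2 in hair cells has a mean of 206 CPM at E14, where their cluster was led by IHC markers and not typed cell by cell. At P7, where both IHCs and OHCs were named, the mean is 8.15 CPM. Sox11 is at or below 11.7 CPM in all the classes shown at P7.

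Sox2 was higher in prosensory cells than in KO before birth and higher in SCs than in KO at P1. At E14 it was expressed at 283 and 106 CPM in the prosensory cells of the 2 libraries and at 52.5 and 25.6 CPM in KO. Both libraries were higher in prosensory cells, and the groups did not overlap (log2 difference 1.97 ± 0.30 SE, limma adjusted p = 0.00088). At E16, prosensory cells held 543, 486 and 429 CPM and KO 20.4, 20.5 and 42.1 CPM, a ratio of the means of 17.6 (log2 difference 3.76 ± 0.35 SE, limma adjusted p = 6.75e-08). The inner phalangeal cells of E16, 119 in all, were at 468, 450 and 387 CPM, a range that overlaps that of prosensory cells.

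At P1 the SCs expressed Sox2 at 261, 381, 385 and 344 CPM in libraries 1 to 4, and KO at 23.9, 23.4, 23.4 and 51.4 CPM. All 4 libraries were higher in SCs, without overlap (log2 difference 3.16 ± 0.30 SE, limma adjusted p = 1.93e-08). The KO level varied between its 8 clusters from 6.76 to 125 CPM. Each of the 8 clusters left unnamed at P1 lay above the KO mean, at 91.4 to 241 CPM. With all unnamed cells counted as KO, the difference was 2.04 at P1 (adjusted p = 1.53e-05) and 2.99 at E16 (adjusted p = 1.26e-06). At P7, SCs held 78.8 and 69.9 CPM and KO 46.2 and 42.1 CPM, and the difference of 0.64 ± 0.44 SE was not called (limma adjusted p = 0.371).

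Hair cells held 228 and 184 CPM of Sox2 at E14, then 174, 187 and 164 CPM (E16), 29.7, 58.6, 57.8 and 67.6 CPM at P1, and 8.26 and 8.05 CPM at P7. No test was run between ages, since each age was deposited as a table of its own. The E14 HCs, 24 and 32 cells in the 2 libraries, overlapped the prosensory cells in Sox2 (log2 difference 0.22 ± 0.30 SE, limma adjusted p = 0.636; -0.32 with cells gated one by one). At E16 HCs were lower than prosensory cells (log2 difference -1.42 ± 0.35 SE, limma adjusted p = 0.00573), in 3 of 3 libraries. This call was lost without library 3 (adjusted p = 0.0993) and with a pseudocount of 1 CPM (adjusted p = 0.247). HCs were lower than SCs at P1 (-2.50 ± 0.30 SE, limma adjusted p = 2.31e-07) and at P7 (-2.21 ± 0.44 SE, limma adjusted p = 0.00148), with no overlap at either age.

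Within the E16 HCs, 197 cells led in neither the inner nor the outer HC marker list, and these held 256, 230 and 266 CPM of Sox2. Outer HCs (OHCs) held 141, 149 and 65.6 CPM and inner HCs (IHCs) 135, 221 and 128 CPM. Each library was thus highest in the cells with no assigned type, a comparison with no test. At P1, OHCs (51.8 ± 17.8 CPM) and IHCs (58.3 ± 16.2 CPM, SD, n = 4) overlapped (log2 difference -0.17 ± 0.29 SE, limma adjusted p = 0.867). P7 OHCs were at 2.20 and 6.02 CPM and IHCs at 18.3 and 12 CPM, which do not overlap, but the difference of -0.83 was not called (limma adjusted p = 0.309).

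With every cell thinned to 1500 UMIs, 23.2% of E14 HCs held a Sox2 UMI (exact binomial 95% interval 13 to 36.4%; 64.3% at full depth), 21.2% at E16 (18 to 24.7%; 34.2%), 7.49% at P1 (5.94 to 9.28%; 24.0%) and 1.75% at P7 (0.478 to 4.41%; 5.68%). The roof, which develops outside the sensory domain, was taken as the class that should lack Sox2: 0 of 687 held one at E14 (up to 0.536%; 0.437% at full depth), 1.60% at E16 (0.646 to 3.27%) and 1.84% at P1 (0.381 to 5.28%). Median depths at full size were 4869 UMIs in E14 HCs against 4415 in roof cells, 3437 against 3597 at E16, and 6624 against 4516 at P1. At P7 the reference was mesenchyme, with 0 of 258 cells (up to 1.42%), and the HC share was not separable from it at this depth. The P1 SCs held a Sox2 UMI in 36.7% of cells (34.0 to 39.4%; 72.4% at full depth). These intervals cover counting error only.

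**Figure D2:**
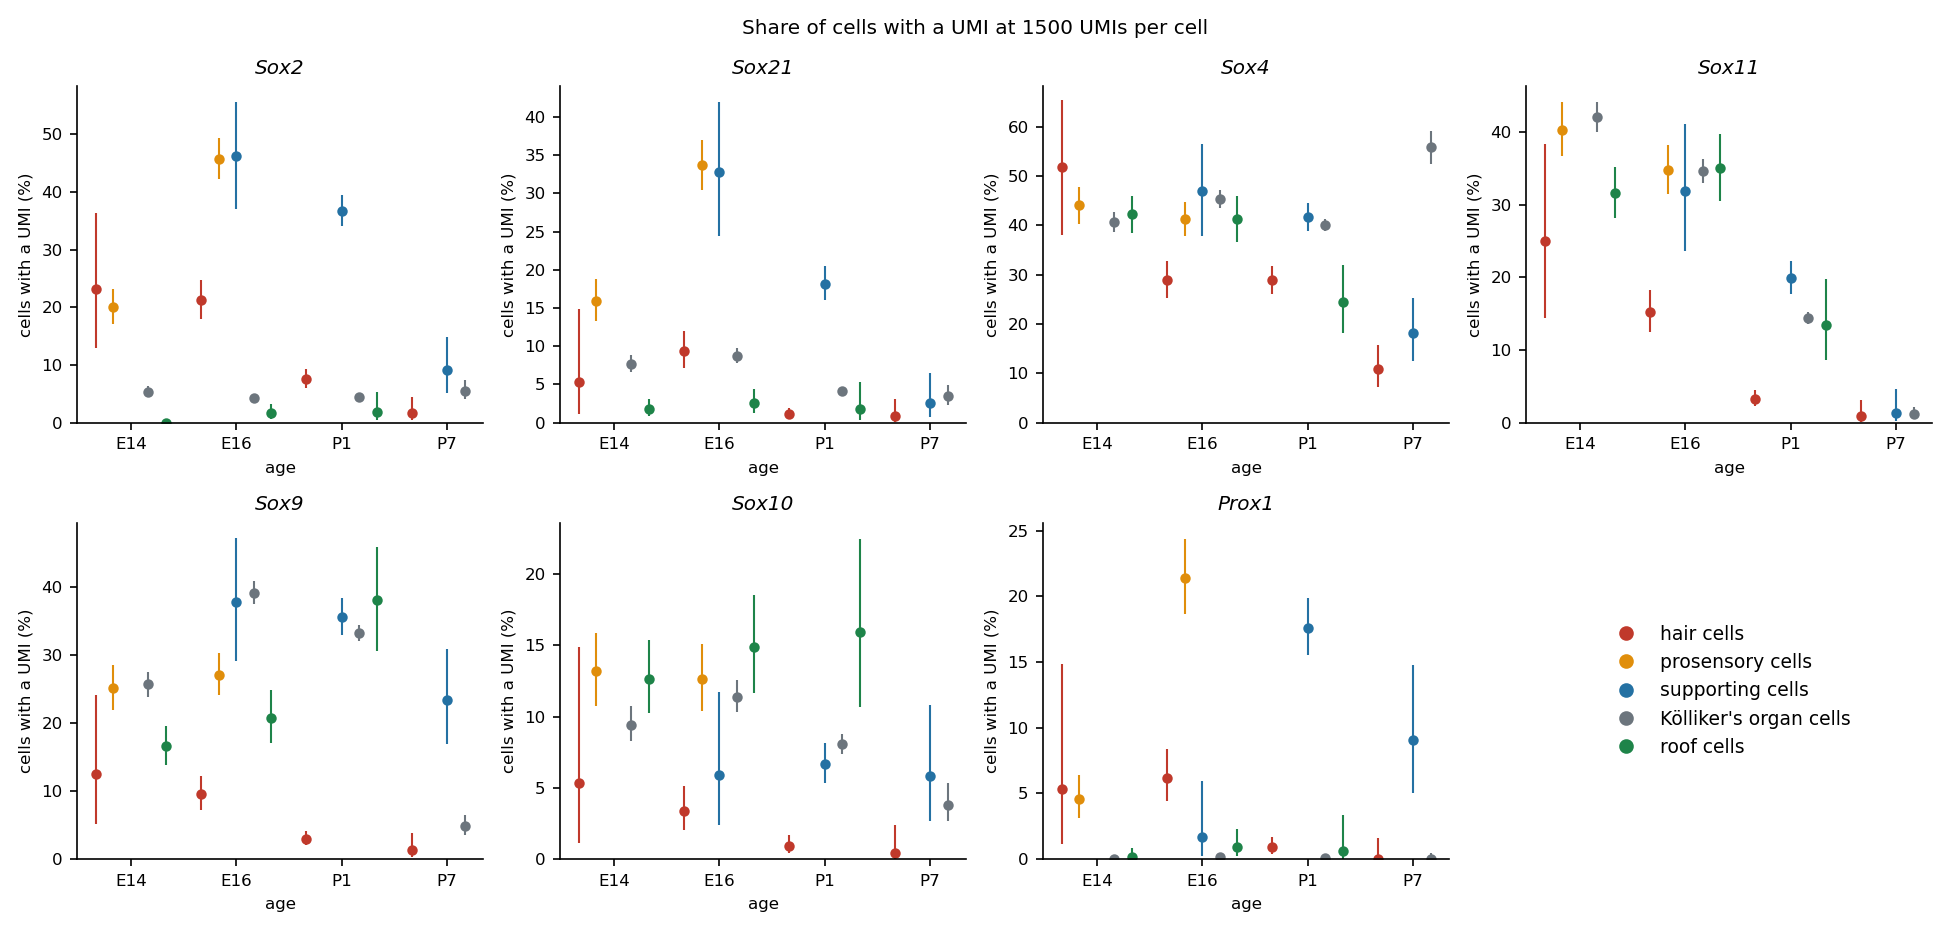
Percent of cells with a UMI of each member (one panel per gene, linear axis from 0) after thinning to 1500 UMIs per cell, by age and class, with exact binomial 95% intervals. Prox1 was found in 21.4% of E16 prosensory cells and in 0.19% of E16 KO cells.

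The floor was separated from the roof in the dissection. The paper proposes that its P1 roof cells were taken along so that the full width of the floor was covered, and this was not tested here. Roof cells held the least Sox2 of the 6 named classes at E14, with 0.734 and 0.425 CPM, from 3 UMIs in 687 cells. KO had 54.2 times as much by pooled UMIs (exact 95% interval 18.4 to 264, for counting error only). The log2 difference from KO was -2.16 ± 0.30 SE (limma adjusted p = 0.000295), one of 3 members called in the roof at E14, all lower, where 16.2% of all genes were called (7.84% higher, 8.34% lower). At E16, Sox2 was at 0, 28.3 and 7.95 CPM in the roof, overlapping KO (log2 difference -0.94, limma adjusted p = 0.0943). It was lower there without library 2 (-1.57, adjusted p = 0.0266) and with unnamed cells counted as KO (-1.71, adjusted p = 0.00087). At P1 the roof held 7.79, 0, 21.5 and 20.9 CPM in 72, 19, 11 and 61 cells, below KO (log2 difference -0.94, limma adjusted p = 0.0201), one of 2 members called, both lower, at P1, where 33.7% of all genes were called (14.3% higher, 19.3% lower). With weights for the counting error of such small groups its adjusted p was 0.0524, although on simulated data the weighted fit too made too many calls here, and with cells gated one by one the sign was opposite (1.18, adjusted p = 0.00024). The P1 call was also lost without library 1, 2 or 4 (adjusted p = 0.0585 to 0.0939), with a pseudocount of 1 CPM (0.051), no filter (0.0542) or no block (0.0606), and in thinned cells (0.237). The 6 mesenchyme markers summed to 284 to 635 CPM in the P1 roof and to 9.12 to 31.2 CPM in KO. In the roof 3 of the 6 had no UMI, while all 6 had one in KO. Postn, one of the 6, was among the leading genes of the P1 roof cluster, so the sum need not come from mesenchymal cells. Its part in the roof differences was not tested.

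Sox21 was likewise higher in prosensory cells and in P1 SCs than in KO. E14 prosensory cells held 132 and 119 CPM and KO 55.2 and 45.5 CPM, higher in prosensory cells in both libraries (log2 difference 1.17 ± 0.21 SE, limma adjusted p = 0.00328). Thinned to 1500 UMIs per cell, that difference was 1.05 and no longer called (adjusted p = 0.331). At E16 the prosensory cells were at 266, 243 and 366 CPM and KO at 81.4, 62.9 and 57.8 CPM (1.95 ± 0.29 SE, limma adjusted p = 4.32e-05). P1 SCs held 110, 164, 117 and 169 CPM and KO 25.3, 29.6, 24.5 and 33.1 CPM (1.96 ± 0.35 SE, limma adjusted p = 0.00014). With unnamed cells counted as KO this was 1.5 (adjusted p = 0.00271). At P7 the SCs were at 54.1 and 55.2 CPM and KO at 29.4 and 30.5 CPM, without overlap, and the difference of 0.70 ± 0.30 SE was not called (limma adjusted p = 0.136; 0.0324 with weights for counting error). Its sign was not stable: it was -0.13 with coarser clusters and -0.36 in cells thinned to 1500 UMIs. A pair of unnamed P7 clusters with KO as their leading class, of 300 and 298 cells, held 105 and 106 CPM of Sox21, above the SCs.

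The place of HCs in the order of Sox21 levels differed between ages. At E14 they were at 164 and 118 CPM, overlapping prosensory cells (log2 difference 0.14 ± 0.21 SE, limma adjusted p = 0.675), and thinned to 1500 UMIs they were lower (-1.35, adjusted p = 0.0473). At E16 HCs held 60.1, 54.6 and 145 CPM, lower than prosensory cells in 3 of 3 libraries (-1.74 ± 0.29 SE, limma adjusted p = 0.000103). P1 HCs, at 4.06 to 8.68 CPM, were the lowest of the 6 named classes and lay below SCs (-3.10 ± 0.35 SE, limma adjusted p = 6.16e-08). P7 HCs held 2.47 and 2.38 CPM (-2.38 ± 0.30 SE, limma adjusted p = 3.63e-05), and this call was lost in thinned cells (-0.70, adjusted p = 0.253). In the roof, Sox21 was lower than in KO at E14 (8.51 and 7.15 CPM, -1.76, limma adjusted p = 0.000101) and at E16 (37.1, 20.2 and 20.3 CPM, -1.13, limma adjusted p = 0.00994), one of 2 members called there, both lower, beside 11.6% of all genes (6.35% higher, 5.22% lower). Thinning ended both calls (adjusted p = 0.0901 and 0.156), and at E16 leaving out library 2 (adjusted p = 0.154) and the gate (0.108) did too. In the P1 roof Sox21 was not called (-0.45, limma adjusted p = 0.344), was called without library 3 (-1.01, adjusted p = 0.00974) and with unnamed cells counted as KO (-0.91, 0.0457), and was at 0.36 with the gate.

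Prox1 was highest in prosensory cells and HCs at E14, in prosensory cells at E16 and in SCs after birth, among the named classes. KO means stayed between 0.467 and 1.06 CPM at the 4 ages. At E14 prosensory cells held 48.6 and 39.4 CPM and KO 0.80 and 0.261 CPM (log2 difference 2.35 ± 0.40 SE, limma adjusted p = 0.00232; 2.21 and adjusted p = 0.195 in thinned cells). At E16 prosensory cells were at 343, 219 and 111 CPM and KO at 0.374, 2.33 and 0.472 CPM (4.28 ± 0.38 SE, limma adjusted p = 4.36e-08). P1 SCs held 139, 85.5, 109 and 172 CPM and KO 0.152 to 0.598 CPM (3.66 ± 0.38 SE, limma adjusted p = 5.51e-08). At P7, the SCs were at 31.8 and 61.5 CPM and KO at 0.767 and 0.338 CPM (2.37 ± 0.31 SE, limma adjusted p = 0.000111), from 53 and 3 UMIs.

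Prox1 was compared between the lateral and medial sides of the epithelium. Of the 699 prosensory cells of E14, 191 were named lateral and 155 medial. The other 353 were given to neither side and were left out of this comparison. Lateral prosensory cells of E14 held 126 and 113 CPM and medial ones 6.67 and 9.29 CPM (log2 difference 2.85 ± 0.41 SE, limma adjusted p = 0.00087). Prox1 UMIs numbered 111 in the lateral cells, 5 in the medial cells and 23 in those of neither side. Prox1 was the 1 member of 7 called in this comparison, where 3.71% of all genes were called (1.76% higher in lateral cells, 1.95% lower), and the call was lost in thinned cells (2.63, adjusted p = 0.116). On simulated data the fit made too many calls in this comparison. With cells gated one by one Prox1 was not among the 6 members tested. At E16, lateral cells held 345, 242 and 143 CPM and medial cells 332, 82.3 and 29.0 CPM, the medial cells numbering 25, 46 and 90. All 3 libraries were higher laterally, yet the groups overlapped and the difference of 1.16 ± 0.52 SE was not called (limma adjusted p = 0.34). Of the 7 members, 0 were called by limma on this axis at E16 and 1, Prox1, had an unadjusted p under 0.05, where 1.57% of all genes were called (1.08% higher, 0.487% lower). Prox1 was called without library 1 (1.71, adjusted p = 0.0363), with cells gated one by one (1.67, adjusted p = 0.0244) and with coarser clusters (1.74, adjusted p = 0.043).

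At P1 the split was complete in the counts. Pillar and Deiters' cells held 183, 111, 144 and 221 CPM of Prox1, and inner phalangeal cells 0 CPM in all 4 libraries. Inner phalangeal cells had 0 UMIs in 288 cells against 991 UMIs in the 960 pillar and Deiters' cells, at least 85.4-fold higher in the latter with a floor of 3 UMIs over the class. The fitted difference was called (limma adjusted p = 1.36e-11), one of 2 members higher on the lateral side, where 13% of all genes were called (7.42% higher, 5.56% lower). The other was Sox11, described with its group. Sox2 (0.58, limma adjusted p = 0.204) and Sox21 (0.33, limma adjusted p = 0.614) were not called here except with cells gated one by one (0.85 and 0.47, adjusted p = 0.00377 and 0.042). After thinning, 22.9% of pillar and Deiters' cells held a Prox1 UMI (20.3 to 25.7%; 52.7% at full depth) and 0 of 288 inner phalangeal cells (up to 1.27%), with median depths of 5697.5 and 4947.5 UMIs. The E16 inner phalangeal cells were at 0, 8.31 and 2.92 CPM.

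HCs carried Prox1 before birth. E14 HCs, 1 cluster led by IHC markers and not typed cell by cell, held 75.8 and 12 CPM, 1 above and 1 below the prosensory values (log2 difference -0.31, limma adjusted p = 0.629). At E16, HCs were at 72.7, 56.3 and 38.2 CPM, below prosensory cells in 3 of 3 libraries (-1.74 ± 0.38 SE, limma adjusted p = 0.00217; adjusted p = 0.143 with a pseudocount of 1 CPM). E16 OHCs held 111, 60.8 and 29.9 CPM and IHCs 19.0, 0 and 0 CPM. At P1, HCs were at 4.61 to 10.7 CPM, lower than SCs in 4 of 4 libraries (-2.94 ± 0.38 SE, limma adjusted p = 5.42e-07). P1 OHCs were at 8.84 ± 3.25 CPM and IHCs at 1.17 ± 1.36 CPM (SD, n = 4), higher in OHCs in 4 of 4 libraries without overlap, but the difference of 0.75 ± 0.33 SE was not called (limma adjusted p = 0.242). It was called with cells gated one by one (0.86, adjusted p = 0.000339), with weights for counting error (0.71, 0.046) and without library 3 (0.89, 0.0191), but on simulated data the weighted fit made too many calls here. Pooled over libraries, these were 54 and 3 UMIs, a ratio of 4.25 with an exact 95% interval of 1.38 to 21.2. That interval covers counting error only and not the spread between libraries. P7 HCs had 1 Prox1 UMI in 229 cells, against 53 in 154 SCs (-2.36 ± 0.31 SE, limma adjusted p = 4.23e-05).

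**Figure D3:**
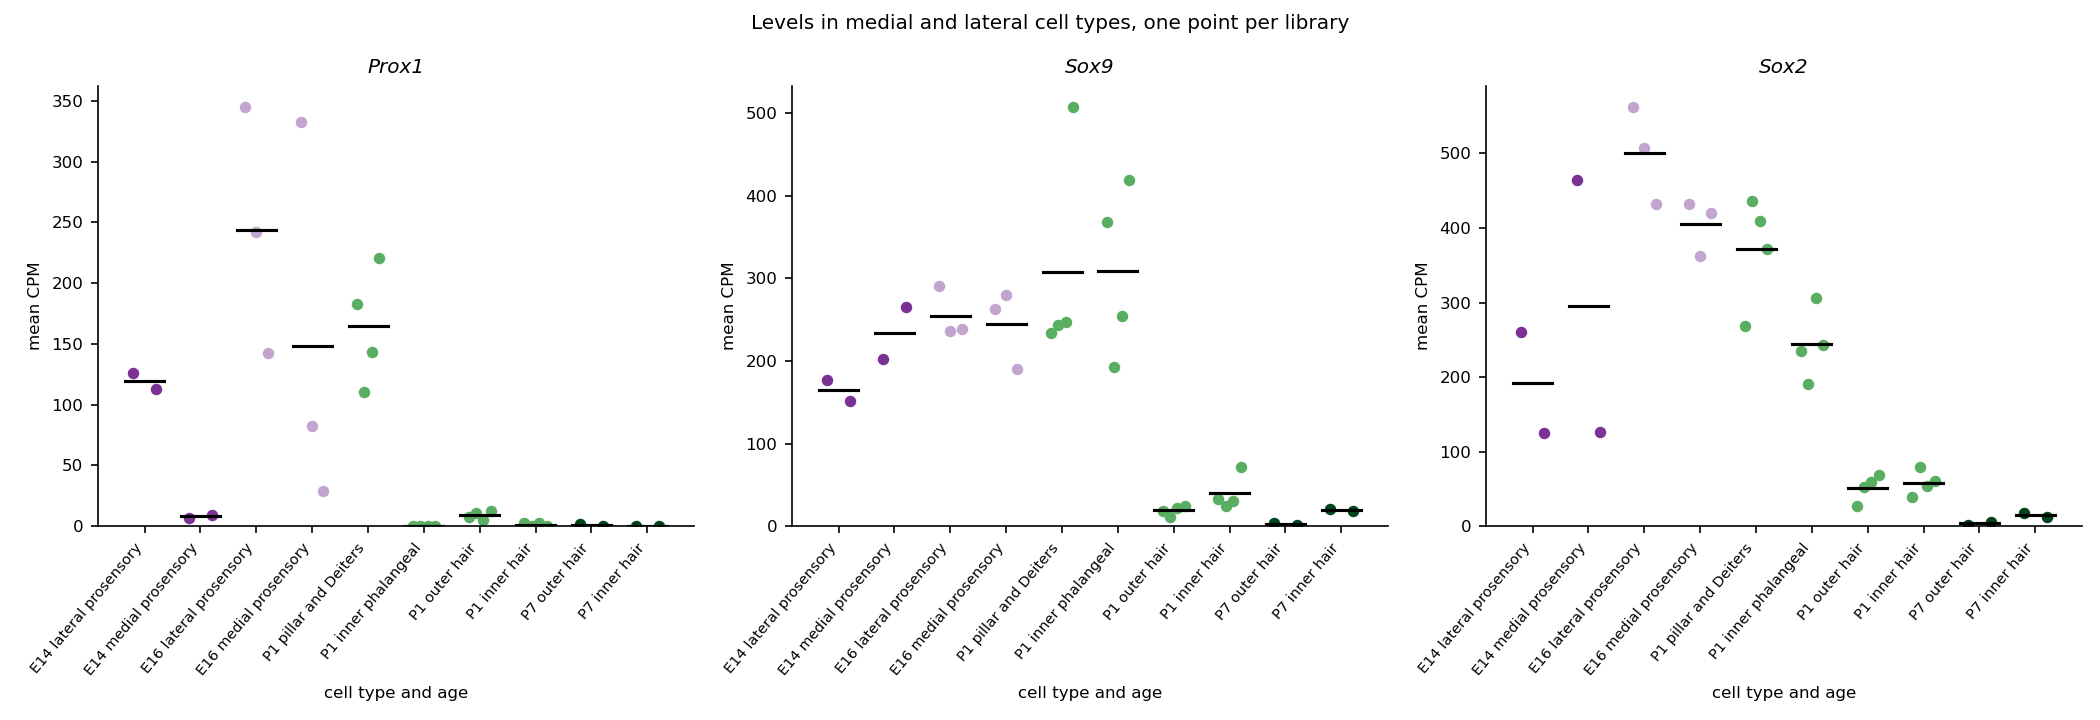
Mean CPM of Prox1, Sox9 and Sox2 in lateral and medial prosensory cells, pillar and Deiters' cells, inner phalangeal cells, OHCs and IHCs, one point per library with a bar at the mean, on linear axes from 0. Prox1 sits at 111 to 221 CPM in P1 pillar and Deiters' cells and at 0 in all 4 inner phalangeal points, while Sox9 and Sox2 are found on both sides.

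Sox4 was expressed in every named class, and before birth it varied more between libraries than between prosensory cells and KO. At E14 it was at 571 and 411 CPM in prosensory cells and 533 and 292 CPM in KO (log2 difference 0.29 ± 0.17 SE, limma adjusted p = 0.431; 0.0464 with weights for counting error). At E16 it was at 425 to 454 CPM and 389 to 482 CPM (-0.01 ± 0.13 SE, limma adjusted p = 0.995), and at P1, SCs held 190 to 672 CPM and KO 233 to 467 CPM (0.15 ± 0.19 SE, limma adjusted p = 0.717). At P7 the order was different. SCs held 139 and 198 CPM and KO 712 and 661 CPM, lower in SCs in both libraries (log2 difference -1.98 ± 0.19 SE, limma adjusted p = 7.95e-06). With cells gated one by one, 0 of the 6 members were called in this comparison, where only 115 of 8803 genes were called. The Sox4 difference was then -0.25 and not called.

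HCs had less Sox4 from E16 on. They were at 277, 244 and 304 CPM at E16, below prosensory cells in 3 of 3 libraries (log2 difference -0.67 ± 0.13 SE, limma adjusted p = 0.000526). P1 HCs held 135, 262, 305 and 287 CPM and SCs 190, 504, 672 and 480 CPM. The groups overlapped across libraries, while within each of the 4 libraries HCs were lower (-0.80 ± 0.19 SE, limma adjusted p = 0.00094; 0.128 without the library block). At P7, HCs were at 101 and 104 CPM (-0.65 ± 0.19 SE, limma adjusted p = 0.0136; 0.0673 in thinned cells). E14 HCs, at 503 and 537 CPM, overlapped prosensory cells (0.10 ± 0.17 SE, limma adjusted p = 0.726). In the P1 roof Sox4 was at 129, 573, 235 and 290 CPM, lower than KO in 3 of 4 libraries (-0.48 ± 0.19 SE, limma adjusted p = 0.0497; weighted adjusted p = 0.0157). That call was lost without the library block (adjusted p = 0.449), without library 1, 3 or 4 (adjusted p = 0.181 to 0.244), and with coarser clusters, a pseudocount of 1 CPM, no filter, no Scrublet doublets or unnamed cells counted as KO (adjusted p = 0.0541 to 0.20).

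Interdental cells, the medial cells that border KO, held the highest Sox4 mean at E14 (918 and 553 CPM, overlapping other classes) and at E16 (704, 775 and 815 CPM, above every other class without overlap). They also held the highest Sox11 means before birth, 637 and 689 CPM at E14 and 616, 545 and 467 CPM at E16. At E16 medial prosensory cells, taken on their own, overlapped them at 781, 421 and 320 CPM.

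Sox11 was not called between prosensory cells and KO at E14 (375 and 434 against 387 and 448 CPM, log2 difference -0.05, limma adjusted p = 0.872) or at E16 (0.09, limma adjusted p = 0.934). Of the 7 KO clusters of E14, 3 were led by cell cycle genes, with 377, 246 and 186 cells and 472, 447 and 780 CPM of Sox11, while the other KO clusters ranged from 279 to 516 CPM. These 3 had 0, 0 and 2 KO markers raised at least 2-fold, and at E16 the cluster led by such genes was left unnamed (249 cells, 610 CPM), so the part of cycling cells in the E14 KO level was not tested. P1 SCs were higher than KO in 4 of 4 libraries, which was not called (0.47, limma adjusted p = 0.161) except with weights for counting error (adjusted p = 0.00937). Its KO means were 418, 341, 110 and 10.7 CPM from E14 to P7, set side by side with no test. HCs were the named class with the lowest mean at each age. At E14 they held 223 and 238 CPM, lower than prosensory cells (log2 difference -0.78 ± 0.09 SE, limma adjusted p = 9.73e-05; 7.85e-05 with weights for counting error). They held 207, 113 and 101 CPM at E16 (-1.37 ± 0.16 SE, limma adjusted p = 1.04e-06) and 13.8, 33.3, 29.7 and 28.8 CPM at P1 (-2.17 ± 0.22 SE, limma adjusted p = 9.38e-09). At P7 Sox11 fell below the filter of a mean of 10 CPM and was not tested, with SCs at 3.20 and 11.7 CPM and HCs at 0 and 6.89 CPM.

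P1 pillar and Deiters' cells held 112, 178, 139 and 272 CPM of Sox11 and inner phalangeal cells 98.6, 61.1, 77.0 and 148 CPM, higher in the former in 4 of 4 libraries (log2 difference 0.79 ± 0.25 SE, limma adjusted p = 0.0267). The call was lost without library 2 (adjusted p = 0.24) or 3 (0.104), without the block (0.142), in thinned cells (0.242), with a pseudocount of 1 CPM (0.0537) and with no filter (0.0664). P1 OHCs were at 29.0 ± 9.61 CPM and IHCs at 14.9 ± 5.97 CPM (SD, n = 4), higher in OHCs in 4 of 4 libraries and not called (0.64 ± 0.25 SE, limma adjusted p = 0.142) except with cells gated one by one (0.55, adjusted p = 0.0201). Lateral prosensory cells of E14 lay below medial ones (343 and 426 against 539 and 501 CPM) without overlap, with an adjusted p of 0.0526 (limma), but the difference of -0.43 was 0.041 with cells gated one by one. In the E14 roof Sox11 was at 303 and 333 CPM, lower than in KO (-0.38 ± 0.09 SE, limma adjusted p = 0.0102; 0.26 in thinned cells and 0.0751 without the block).

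Sox9 was broadly expressed outside HCs, except in the glia of P7, which held 4 Sox9 UMIs in 178 cells, beside 14 in the 229 HCs of that age. At E14 prosensory cells (200 and 221 CPM) and KO (193 and 233 CPM) overlapped (log2 difference -0.01 ± 0.32 SE, limma adjusted p = 0.993). At E16 prosensory cells held 286, 242 and 225 CPM and KO 422, 381 and 372 CPM, lower in prosensory cells in 3 of 3 libraries without overlap, but not called (-0.63 ± 0.29 SE, limma adjusted p = 0.267) except with weights for counting error (adjusted p = 0.0435). The 119 inner phalangeal cells of E16 were at 915, 251 and 494 CPM, the widest spread of Sox9 in a class at that age. At P1, SCs (266, 232, 249 and 488 CPM) and KO (212, 218, 288 and 385 CPM) overlapped (0.13 ± 0.17 SE, limma adjusted p = 0.727), and library 4 was the highest in both. At P7 SCs held 154 and 160 CPM and KO 38.1 and 49.2 CPM (1.65 ± 0.34 SE, limma adjusted p = 0.00389). That call was lost with a pseudocount of 1 CPM (adjusted p = 0.0795) and with cells gated one by one (0.83, adjusted p = 0.464).

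HCs held less Sox9 than prosensory cells or SCs at all 4 ages. E14 HCs were at 31.7 and 136 CPM (log2 difference -1.50 ± 0.32 SE, limma adjusted p = 0.00802; 0.000137 with weights for counting error). The difference was -2.33 in library 1 and -0.66 in library 2, and with cells gated one by one it was -0.47 (adjusted p = 0.0798). E16 HCs held 111, 63.1 and 37.5 CPM (-1.80 ± 0.29 SE, limma adjusted p = 6.66e-05). P1 HCs were at 22.1, 14.3, 23.6 and 30.8 CPM, below SCs in 4 of 4 libraries (-3.24 ± 0.17 SE, limma adjusted p = 3.83e-14). P7 HCs held 10.6 and 6.72 CPM (-3.17 ± 0.34 SE, limma adjusted p = 8.3e-06). Among HCs, OHCs were the lower type: 11.4 to 24.5 CPM against 24.4 to 71.7 CPM in IHCs at P1 (-0.72 ± 0.18 SE, limma adjusted p = 0.0119, lower in 4 of 4 libraries) and 4.21 and 0.838 against 21.2 and 18.1 CPM at P7 (-1.25 ± 0.36 SE, limma adjusted p = 0.0364). It was the 1 member called at each of these ages, where 5.57% of all genes were called at P1 (3.34% higher in OHCs, 2.23% lower) and 9.56% at P7 (4.43% higher, 5.13% lower). The P1 call was lost without library 2 or 4 (adjusted p = 0.0819 and 0.249), with the gate (0.0835), without the block (0.354) and in thinned cells (-0.23, adjusted p = 0.853). The P7 values rest on 3 UMIs in OHCs and 11 in IHCs (pooled IHC to OHC ratio 5.86, exact 95% interval 1.55 to 32.7, for counting error only). The P7 call was lost with coarser clusters (-0.04, adjusted p = 0.975), the gate (-0.43, 0.483), no filter (0.0747), thinning (0.13), without Scrublet doublets (0.053) and without the block (0.0536).

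In the roof, Sox9 was lower than in KO at E16 (187, 233 and 157 CPM, log2 difference -1.0 ± 0.29 SE, limma adjusted p = 0.0231), a call lost without library 3 (adjusted p = 0.268), without the block (0.0658) and with no filter (0.0899). The E14 difference was -0.64 (119 and 147 CPM in the roof, limma adjusted p = 0.23), called with the gate (-0.77, adjusted p = 0.000368) and with weights (adjusted p = 0.000202). At P1 the roof held 315, 317, 291 and 475 CPM, higher than KO in 4 of 4 libraries and not called (0.34 ± 0.17 SE, limma adjusted p = 0.115) except with unnamed cells counted as KO (0.51, adjusted p = 0.022), and the sign was opposite with the gate (-0.21).

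Sox10, which in the inner ear is known from the whole otic epithelium and from glia, was not called between prosensory cells and KO. E14 prosensory cells were at 110 and 90.5 CPM and KO at 65.8 and 71.2 CPM, without overlap (log2 difference 0.48 ± 0.17 SE, limma adjusted p = 0.103; 0.0113 with weights for counting error). E16 prosensory cells (65.8 to 105 CPM) and KO (73.6 to 99.3 CPM) overlapped (-0.02, limma adjusted p = 0.995), as did P1 SCs (47.8 to 69.1 CPM) and KO (49.9 to 65.9 CPM; -0.09, limma adjusted p = 0.902). At P7 the SCs held 56.9 and 51.3 CPM and KO 18.2 and 27.7 CPM, with an adjusted p of 0.0558 (0.97 ± 0.33 SE, limma), and it was called with weights (adjusted p = 0.0114), coarser clusters (0.0316) and unnamed cells counted as KO (0.0494). Lateral nonsensory cells of the duct floor held the highest mean at E14 (142 and 110 CPM), where the lower library was level with the higher one of prosensory cells, and at E16 (124, 146 and 141 CPM). That order is of classes not split by side: medial prosensory cells of E16, taken on their own, held 186, 99.6 and 129 CPM of Sox10, overlapping them.

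HCs were lower in Sox10 at each age. They were at 38.8 and 32.0 CPM at E14 (log2 difference from prosensory cells -1.28 ± 0.17 SE, limma adjusted p = 0.000315; 0.00355 with weights and 0.0753 in thinned cells) and at 35.3, 28.7 and 9.05 CPM at E16 (-1.59 ± 0.27 SE, limma adjusted p = 0.000125). Against SCs, P1 HCs (2.45 to 9.54 CPM) were lower (-2.01 ± 0.25 SE, limma adjusted p = 2.82e-07) and P7 HCs (6.25 and 2.39 CPM) were too (-2.18 ± 0.33 SE, limma adjusted p = 0.00016). The 10 listed markers of myelinating glia summed to 110 to 199 CPM in P1 HCs and to 58.4 to 113 CPM in P1 SCs, and their part in the Sox10 differences was not tested. Among the 3 comparisons of roof cells with KO, Sox10 was called in 0, with differences of 0.34, 0.22 and 0.19 from E14 to P1 (limma adjusted p = 0.21, 0.74 and 0.603; unadjusted p = 0.0621, 0.426 and 0.457), and with weights it was called at E14 (adjusted p = 0.0493). Between P1 OHCs and IHCs it was not called (0.56, limma adjusted p = 0.239), except with a pseudocount of 1 CPM (2.17, adjusted p = 0.00138), where 3 of the 4 IHC libraries held 0 CPM.

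**Figure D4:**
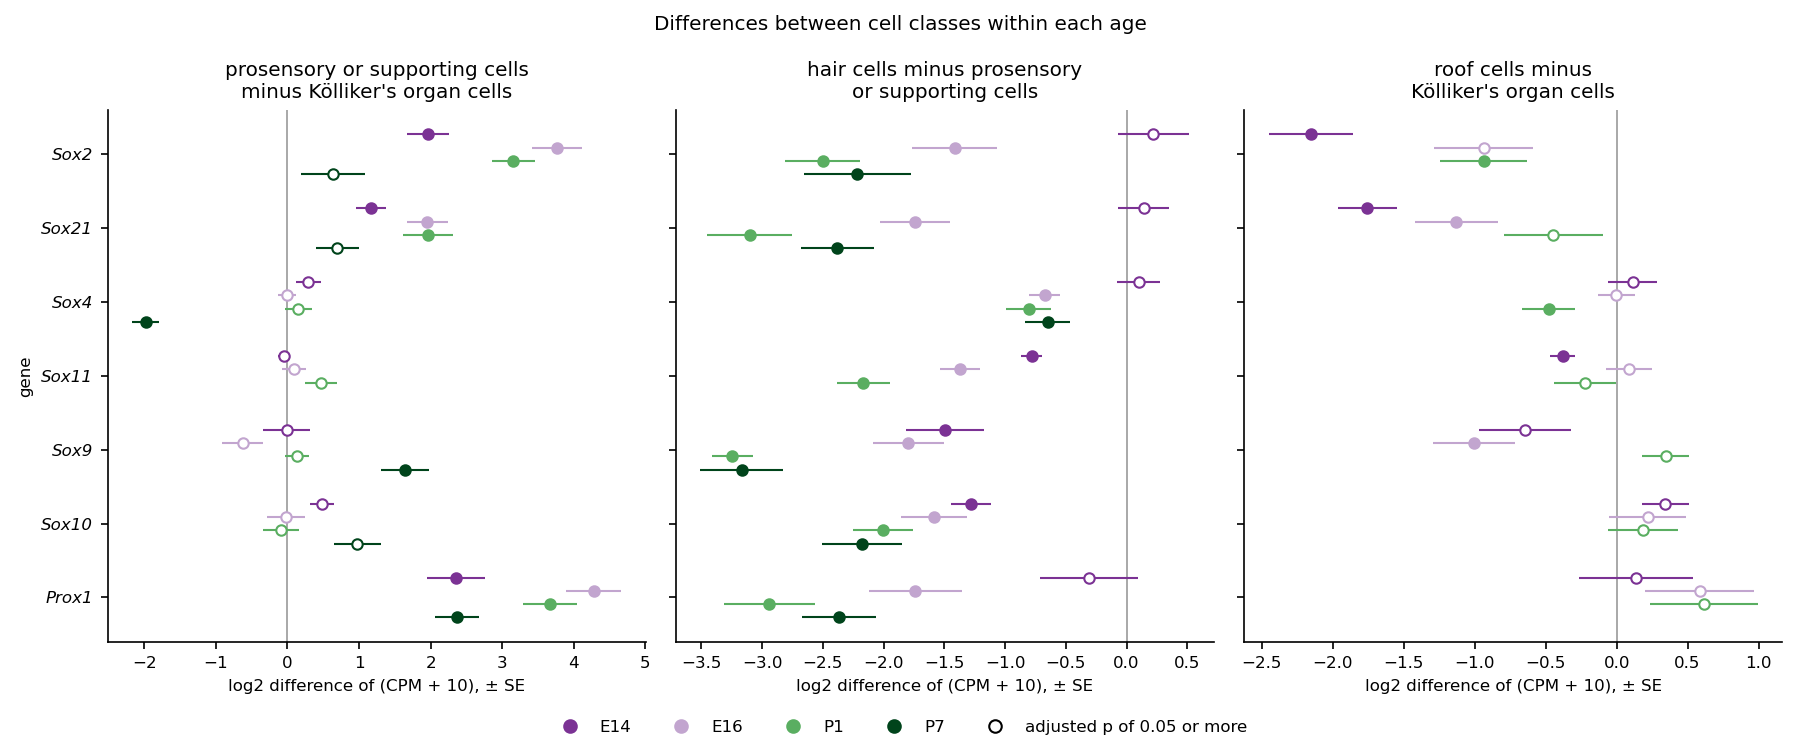
Log2 differences (± SE) of the 7 members between classes, by age: prosensory or supporting cells against KO, hair cells against prosensory or supporting cells, and roof cells against KO. Filled points were called at an adjusted p under 0.05. In the hair cell panel the E16, P1 and P7 points that were tested all lie below 0 and are filled, and in the roof panel Sox9 lies at -1.0 at E16 and 0.34 at P1.

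Other genes of the pathway were read from 2 lists. Of 17 genes of the prosensory network (Notch pathway genes, Id genes, Fgfr1, Ccnd1 and early transcription factors), 7 of 16 tested were higher and 1 lower in E14 prosensory cells than in KO (median log2 difference 0.42, all genes -0.01), beside 5.27% and 4.74% of all genes. At E16, 5 of 17 were higher and 0 lower (median 0.30, all genes 0.01), beside 4.66% and 3.81%. Those with the largest differences at E14 were Atoh1, the HC-determining factor (43.5 against 0.385 CPM, 2.27 ± 0.31 SE, limma adjusted p = 0.000436), Gata3 (661 against 167 CPM, 1.92) and the Notch effector Hey1 (306 against 89.7 CPM, 1.73). At E16 they were Hey1 (599 against 102 CPM, 2.97), the Notch ligand Jag1 (213 against 45.4 CPM, 2.0) and Atoh1 (42.0 against 3.09 CPM, 1.93). In P1 SCs against KO, 6 of 17 were higher and 3 lower (median 0.61, all genes 0.04), beside 10.5% and 7.28% of all genes, with Jag1 at 232 against 29.2 CPM. At P7 4 of 14 were higher and 2 lower (median 0.31, all genes 0.01), beside 10.7% and 8.36% of all genes.

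In E14 HCs, 3 of 16 were higher and 6 lower than in prosensory cells (median 0.23, all genes -0.10), beside 7.35% and 13.3% of all genes. At E16, 3 of 17 network genes were higher and 10 lower than in prosensory cells (median -1.06, all genes -0.03), beside 6.77% and 8.08%. At P1, 4 of 17 were higher, a share close to the 21.7% of all genes, and 13 lower than in SCs, beside 23.1% (median -1.96, all genes -0.01). Atoh1 and the Notch ligand Dll1 were higher at E16 (Atoh1 873 against 42.0 CPM, 4.05 ± 0.38 SE, limma adjusted p = 2.24e-08; Dll1 100 against 2.79 CPM, 3.01 ± 0.25 SE, limma adjusted p = 4.89e-09). Hey1 (55.3 against 599 CPM at E16 and 16.2 against 672 CPM at P1) and, at P1, Jag1 (8.64 against 232 CPM) were among the lower ones. At P7, 1 of 14 was higher and 9 lower (median -1.81, all genes 0.05), beside 20.2% and 19.3% of all genes.

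Of 14 other Sox and Prox genes, 3 or 4 passed the filter in a comparison. In E16 prosensory cells, Sox13 (38.2 against 8.13 CPM) and Sox6 (42.2 against 14.3 CPM) were higher than in KO and Sox5 was lower (18.3 against 52.8 CPM), all of the D group. P1 SCs were again higher in Sox13 (52.1 against 5.81 CPM) and Sox6 (22.4 against 8.44 CPM). P1 HCs were lower than SCs in Sox13 (3.87 CPM) and Sox5 (4.73 against 26.1 CPM) and higher in Sox12, the other C group gene (62.1 against 16.7 CPM, log2 difference 1.43 ± 0.29 SE, limma adjusted p = 0.000241). Sox12 was also higher in P7 HCs (37.4 against 5.65 CPM, 1.60 ± 0.29 SE, limma adjusted p = 0.000739), at ages at which HCs held less of Sox4.

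Over the 24 class-by-age means of log2(CPM + 10), 9318 genes were ranked by Pearson correlation with each member, as a description of means that share libraries. The 3 nearest to Sox2 were Nrcam (0.89), C130071C03Rik (0.89) and Cdkn1b (0.85), and Nrcam and Cdkn1b were among the markers that named the classes. For Sox21 they were Gm4675 (0.87), the noncoding gene that overlaps it on the opposite strand, Cyp26b1 (0.86) and Mctp1 (0.85). Prox1 was nearest to Mdm1 (0.85), Ngfr (0.85) and Fgfr3 (0.84), all 3 of them lateral prosensory or pillar and Deiters' cell markers. Sox11 was nearest to Zfp125 (0.95), Rps24-ps3 (0.92) and Tpm3-rs7 (0.92), and Sox4 to Akirin2 (0.87), Tmsb4x (0.83) and Apool (0.82). The genes nearest to Sox9 were Dcbld1 (0.90), Ctgf (0.88) and Foxp4 (0.87), and those nearest to Sox10 were Nras (0.89), Erbb3 (0.88) and Ptpre (0.86). Between members the highest values were 0.77 for Sox11 with Sox9, 0.72 for Sox2 with Prox1 and 0.69 for Sox2 with Sox21, and Sox4 with Prox1 was the lowest at -0.08.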

How the data were processed

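Cells of the cochlear duct floor were captured on the 10x Genomics system, aligned to mm10 with Cell Ranger 2.1.1 and normalized with Seurat 2.0, per the submitters' processing notes. The deposited values are the natural log (ln) of 1 plus 10000 times the fraction that a gene takes of all UMIs in a cell, and UMIs were recovered from them as whole numbers (within 2%). Whether counting used the strand is not given in the sources used here.

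Cells of each age were clustered on other genes than the 7 members (scanpy 1.11.5, leidenalg 0.10.2, resolution 2, 30 components) and named from marker lists. Thresholds for naming were chosen with the clusters in view, and the members and lists were chosen with earlier results of these data known. Doublets were treated by leaving out cells called by Scrublet as an alternative. CPM was averaged per class and library, where a class had at least 5 cells in the library. Log2(CPM + 10) of genes whose mean reached 10 CPM was fitted with limma 3.58.1 (R 4.3.3; trend, library as a block, all named classes of an age), with Benjamini-Hochberg adjustment over all genes. On simulated data this fit made too many false calls in some comparisons, above all in 2 with few cells in a class. Of the simulated calls, 45.9% were false in E14 HCs against prosensory cells and 55.3% in P1 roof against KO. The 20.7% and 33.7% of all genes called in these 2 can thus hold many false calls. It did so less in lateral against medial prosensory cells and P7 OHCs against IHCs. In the rest, at most 3.80% of simulated calls were false. Each simulated library shifted all its classes alike (SD of 0.3 on the log2 scale), which the block takes out, and the dispersion was set at 0.02. Real differences between classes can vary more from library to library, so the simulated rates need not hold for these data. The fit recovered 9 to 49% of simulated 2-fold changes and 59 to 93% of 4-fold ones, so a difference that was not called can still be present. Values weighted for counting error are given beside the member differences that the main fit called in the first 2. The weights reduced false calls in the first 2 (to 8.64% and 23.4%) and in lateral against medial cells without removing them. In the other comparisons they raised false calls, the most in P1 OHCs against IHCs and next in P1 pillar and Deiters' against inner phalangeal cells. Other alternatives were a per-cell marker gate, coarser clusters, a pseudocount of 1 CPM, no filter, thinning to 1500 UMIs, no block and leaving out each library. The weights, and counting unnamed cells as KO, were chosen after seeing the data. Named genes were all members, the 3 genes most correlated with each, and of each list the 3 called genes with the largest differences. Python 3.11.15 was used. Total UMIs per library were 3828399 to 23523802.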

Additional observations from a re-analysis of the deposited data

Results flagged for a closer look

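Of 69 groups of 4 P1 libraries, 9 held a library whose gap to the nearest other library was large beside the range of the group (Dixon's 95% value), and chance flags about 1 in 20 groups. Library 4 was the highest in 5 of them. Sox2 in KO was at 51.4 CPM there and at 23.4 to 23.9 CPM in the others. Sox9 was at 488 CPM in SCs (232 to 266 CPM in the others), at 507 CPM in pillar and Deiters' cells (234 to 247 CPM) and at 475 CPM in the roof (291 to 317 CPM). Sox10 in SCs was at 69.1 CPM, with 47.8 to 49.8 CPM in the others.

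Prox1 in the roof was at 51.6 CPM in library 3, which held 11 roof cells, and at 0 to 0.708 CPM in the others. In KO, library 3 had the lowest Prox1, 0.152 CPM against 0.548 to 0.598 CPM. Library 1 had the lowest Sox4 in OHCs, 145 CPM against 273 to 289 CPM, and held 6.32 CPM of Sox10 in IHCs, which were at 0 in the other libraries.

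In 4 cases every library moved one way at an age and the other way at another, and the difference between the ages was not tested. Sox9 in the roof against KO was at a log2 difference of -1.0 at E16 and -0.64 at E14, and at 0.34 at P1. Sox2 in lateral against medial prosensory cells was at -0.41 at E14 and 0.29 at E16. Sox10 on the same axis was at 0.30 at E14 and -0.74 at E16. None of these opposite signs held with cells gated one by one, where Sox9 in the P1 roof was at -0.21, Sox2 at E14 at 0.28 and Sox10 at E16 at 0.10. In thinned cells Sox10 at E14 was at -0.0014.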

How the results depend on the processing

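Of 47 member differences called, 26 were called under every alternative that tested the gene and gave a p-value, and 21 were not. An alternative in which the gene fell below the filter was not counted against it. At E14 and P7, fits without a library were judged only by the size and sign of the difference. Numbers of members called were 3 at E16 (prosensory against KO), 3 at P1 (SCs against KO) and 7 at P1 (HCs against SCs) under leaving out any library. Over all genes, 414 to 727, 1169 to 1377 and 3385 to 3827 were called in these fits, of 8965 to 9328 tested. In thinned cells, 1 member was called in E14 prosensory cells against KO, E14 roof, E16 roof, P1 roof and P1 pillar and Deiters' against inner phalangeal cells, and 0 in E14 lateral against medial cells and in OHCs against IHCs at P1 and P7. In the same order, 283 of 8970, 544 of 8970, 794 of 9158, 2052 of 9099 and 473 of 9201 genes were called, then 72 of 8973, 282 of 9201 and 432 of 9325. With weights, 5 were called in E14 prosensory cells against KO (2165 of 8988 genes), in the E14 roof (3214 of 8988) and in P7 SCs against KO (2592 of 9202). They were 2 in P1 OHCs against IHCs (876 of 9231 genes) and 1 in the P1 roof (2631 of 9125). With the per-cell gate, 0 were called in E14 lateral against medial cells (6 members tested, without Prox1), P7 SCs against KO and P7 OHCs against IHCs, where 60 of 8935, 115 of 8803 and 795 of 8941 genes were called. The gate gave 1 in the E16 roof (646 of 9077 genes) and E16 lateral against medial cells (152 of 9095). It gave 2 in P1 OHCs against IHCs (592 of 8954 genes) and 4 in P1 pillar and Deiters' against inner phalangeal cells (1641 of 8954). Coarser clusters gave 1 in E16 lateral against medial cells (270 of 9219 genes), 1 in the P1 roof (2947 of 9118) and 0 in P7 OHCs against IHCs (782 of 9369). A pseudocount of 1 CPM gave 0 in the P1 roof (3094 of 9125 genes), 1 in pillar and Deiters' against inner phalangeal cells (992 of 9231) and 2 in P1 OHCs against IHCs (478 of 9231). No filter gave 1 in the E16 roof (1229 of 21395 genes), 0 in the P1 roof (3650 of 22956), 1 in pillar and Deiters' against inner phalangeal cells (1444 of 22956) and 0 in P7 OHCs against IHCs (783 of 20437). Without Scrublet doublets there was 1 in the P1 roof (3054 of 9127 genes) and 0 in P7 OHCs against IHCs (841 of 9339). Leaving out a library gave 6 to 7 in E16 HCs, 0 to 1 in E16 lateral against medial cells, 1 to 2 in the E16 roof, 0 to 2 in the P1 roof, 1 to 2 in pillar and Deiters' against inner phalangeal cells and 0 to 2 in P1 OHCs against IHCs. In the same order, 733 to 1474, 29 to 98, 616 to 1061, 2357 to 2858, 813 to 908 and 320 to 396 genes were called, of 8965 to 9394 tested. At E14 and P7, leaving out 1 of 2 libraries left no residual degrees of freedom, so no count could be given. Sox21 in E14 HCs was at -1.35 in thinned cells, the opposite sign, and Sox2 in the P1 roof was at 1.18 with the per-cell gate. Counted over all alternatives, 70 further values of differences that were not called had the opposite sign, several of them of the same difference. The cause was not tested.

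The library block pairs classes captured in the same library; library numbers do not pair ages. Without the replicate block, 1 member was called in the E16 roof (720 of 9171 genes), 0 in the P1 roof (1621 of 9125), 1 in pillar and Deiters' against inner phalangeal cells (574 of 9231) and 0 in OHCs against IHCs at P1 and P7 (258 of 9231 and 618 of 9350). Over all genes, it moved the calls from 333 to 211 (E14 lateral against medial), 145 to 68 (E16), 1621 to 993 (P1 SCs against KO), 3071 to 1621 (P1 roof), 1198 to 574 (pillar and Deiters' against inner phalangeal) and 514 to 258 (P1 OHCs against IHCs).

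Other counts over all genes moved by over 1.5 times. In E14 prosensory cells against KO, 900 became 593 (gate), 283 (thinned) and 2165 (weights). E14 HCs went from 1858 to 269 (gate) and 868 (weights), and the E14 roof from 1455 to 544 (thinned) and 3214 (weights). E14 lateral against medial went from 333 to 60 (gate) and 72 (thinned). E16 prosensory against KO went from 776 to 1297 (weights), 414 (without library 2) and 417 (without library 3), E16 HCs from 1362 to 799 and 733 without these libraries, and the E16 roof from 1061 to 616 and 629, and to 646 (gate). E16 lateral against medial went from 145 to 270 (coarser), 56 (pseudocount), 61 (thinned), 29 (without library 2) and 53 (without library 3). P1 SCs against KO went from 1621 to 783 (thinned) and 3306 (weights), P1 HCs from 4088 to 2529 (thinned), the P1 roof from 3071 to 514 (gate) and pillar and Deiters' against inner phalangeal cells from 1198 to 473 (thinned). P1 OHCs against IHCs went from 514 to 908 (no filter), 282 (thinned), 876 (weights) and 320 (without library 2). P7 SCs against KO went from 1752 to 115 (gate) and 948 (thinned), and P7 OHCs against IHCs from 894 to 432 (thinned).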

Other observations

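Glia and mesenchyme were found as classes of their own at P7, with 178 and 258 cells. The glia held 335 and 71.4 CPM of Sox2 in the 2 libraries, a range that overlaps the SCs (78.8 and 69.9 CPM), and 116 and 82.3 CPM of Sox10, above the SCs (56.9 and 51.3 CPM) without overlap. Glial markers summed to 27999 to 32126 CPM in the glia and 59.9 to 77 CPM in SCs. Mesenchyme held Sox2 at 4.58 and 1.09 CPM and Sox11 at 24.5 and 17.4 CPM, the highest Sox11 mean of the named P7 classes. These values enter no comparison with a test.

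Lateral nonsensory cells of E16 held Sox2 at 76.3, 40.5 and 34.4 CPM, and their 4 clusters ranged from 9.05 to 136 CPM. Interdental cells, which lie beside KO, held 14.1, 13 and 14.2 CPM at that age.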
